A study of Mus musculus with 4 samples.

Results

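The comparison described here set 1 array of Ctbp1/2 double-knockout (DKO) mouse embryonic stem cells at d0 against 1 array of wild-type (WT) cells at d0. These are 2 of 4 arrays. The other 2, of the same genotypes at d2, are given beside them. All 4 were of the line E14tg2a, grown in serum with LIF, and all lay on strip 2 of an Affymetrix GeneAtlas system. The series concerns PRDM14 overexpression, but the labels do not say what d0 and d2 count from, and they name no construct and no number of knockout clones, so a property of 1 clone cannot be told apart from the knockout. Each group was 1 array, so no difference below has an error or a test. Genes were chosen by their level: of 22180 genes with a probe set of exactly 1 symbol, the 1160 (5.23%) whose mean over both d0 arrays was at least 1 are described. The lowest of these, Txn2, measured 0.96 on WT and 1.04 on DKO, and Tnrc6c, just under the limit, 0.89 and 1.11. Values are the authors' RMA values, taken as log2, so that a difference of 1 stands for 2-fold. They depend on each probe set's own probes and do not rank genes by abundance.

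CtBP1 and CtBP2 are closely related corepressors that bind NADH and do not contact DNA themselves. Sequence-specific repressors such as ZEB and KLF proteins, and some PRDM proteins, recruit them through short peptide motifs. CtBP in turn brings histone deacetylases, the demethylase LSD1 and histone methyltransferases to the promoter. In embryonic stem cells they have been linked to the silencing of pluripotency genes on differentiation.

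Neither deleted gene could be checked on its own probe set. Ctbp1 measured 0.63 on WT d0 and 0.56 on DKO d0, and Ctbp2 0.55 on both, each from its only probe set with 1 symbol. The labels do not give the deleted part, and a probe set outside it checks nothing. The genotypes below are therefore those of the labels. Prdm14 measured 0.34 on WT and 0.24 on DKO, the PRC2 subunit gene Suz12 0.54 and 0.26, and Cbfa2t2, a corepressor scaffold that binds PRDM14, 0.54 and 0.53. None of the 31 counted genes of the CtBP complex and its partners had a mean of at least 1.

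The array of DKO d2 stood apart from the rest. Its correlation across probe sets with the other 3 arrays was 0.727 with each, against 0.827 to 0.832 among those. Values of the d2 pair are given with that limit. Markers of embryonic stem cells gave weak signal: 2 of 13, Dppa3 and Dppa5a, had a d0 mean of at least 1, and the marker median was 0.53 on WT and 0.66 on DKO. Summed over the list, the log2 values of these markers came to 8.21 on WT and 9.14 on DKO. Sums of log2 values, here and below, are not amounts of RNA and give no fold. Fibroblast markers summed to 4.37 and 5.12 with 2 of 9 at a mean of at least 1, though their median was 0.56 on WT and 0.46 on DKO. Trophoblast markers summed to 4.28 and 4.71 with 1 of 8, primitive endoderm markers to 3.63 and 4.50 with 1 of 6, and neural markers to 2.77 and 2.26 with 1 of 4. The part of other cell types in the differences below was not tested.

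Between the genotypes at d0, 19 genes were at least 2-fold higher in DKO and 19 at least 2-fold lower, 38 of 1160 or 3.28% (1.64% in each direction). The largest differences among the higher genes were those of the 2-cell-stage transcript Tmem92, the microRNA gene Mir5099 and 1700071K01Rik. Among the lower genes they were those of the olfactory receptor gene Olfr1337, the microRNA gene Mir328 and the preimplantation gene Trim43c. For scale, the same 1160 genes gave 31 differences of that size (2.67%) between WT d2 and WT d0, which have the same genotype and share the WT d0 array with this comparison. Between DKO d2 and DKO d0, which share the DKO d0 array with it, 84 were (7.24%), 55 of them lower at d2 (4.74%). Most genes lay close to equal at d0. The median difference was 0.01, the quartiles were -0.22 and 0.25, and 945 genes (81.5%) lay within 0.5 either way. A difference above 0 was found for 598 genes (51.6%).

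The share past 2-fold grew with level. Among counted genes, those whose highest value reached 0.30, it was 0.0384% at a mean below 0.5, 0.479% from 0.5 to 1, 2.26% from 1 to 2, 7.02% from 2 to 4 and 8.47% at 4 and above. The interquartile range of the difference was 0.30 in the first of these bins and 0.62 in the last. The brightest genes themselves were nearly equal. ND6, a mitochondrially encoded subunit of respiratory complex I, measured 8.14 on WT and 7.98 on DKO, Mettl7a3 8.29 and 8.34, Mir5112 8.34 and 8.41, Mir1195 7.23 and 7.24, and the translation helicase gene Eif4a2 7.13 on both. Scgb1b3 gave 8.13 and 8.19, Olfr1454 8.23 and 8.20, Vmn1r208 7.63 and 8.07 and LOC100039029 7.54 and 7.15. The exception among the 10 highest genes was Mir680-2.

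**Figure D1:**
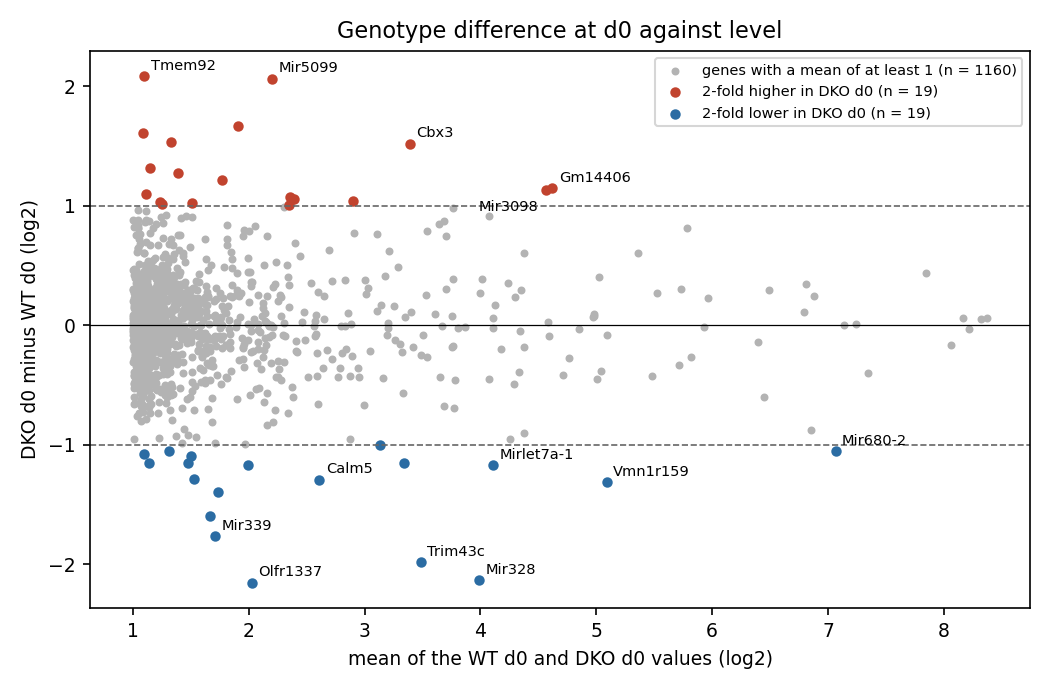
Difference DKO d0 minus WT d0 (log2, vertical axis) against the mean of both d0 values (log2, horizontal axis) for 1160 genes, 1 point per gene, with dashed lines at 2-fold. The 19 higher (red) and 19 lower (blue) genes lie on both sides of a cloud centred near 0, and Mir680-2 is the one at the highest level.

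MicroRNA genes were the class with the largest share of 2-fold differences. MicroRNAs are short RNAs cut from hairpin precursors, which guide Argonaute to messenger RNAs mainly by the seed, bases 2 to 8. Of 72 microRNA genes with a mean of at least 1, 5 were higher and 4 lower by 2-fold (12.5%, against 3.28% of all 1160). Among them Mir339, Mir3473a and Mir186 lay below 1 on 1 d0 array and had a mean of at least 1 only through the other. Neither direction prevailed in the class, in which 34 were above 0 and the median was -0.01. Their median absolute difference was 0.41, against 0.22 for protein-coding genes outside the ribosomal and receptor families. The median level was also higher, at 1.74 against 1.26. A probe set for a microRNA gene does not say which form of the RNA, precursor or mature, gave the signal. The RefSeq table of GRCm38.p6 held 8 of the 9 genes and mature sequences for 7, which are printed 5′ to 3′ with the seed in capitals because this class had the highest share past 2-fold. The mature microRNAs of the lower genes were:
let-7a-5p: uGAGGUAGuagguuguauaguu
let-7a-1-3p: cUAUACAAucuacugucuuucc
miR-339-5p: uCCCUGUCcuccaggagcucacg
miR-339-3p: uGAGCGCCucggcgacagagccg
miR-680: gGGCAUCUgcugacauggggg

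The mature microRNAs of the higher genes were:
miR-3473a: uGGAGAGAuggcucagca
miR-186-5p: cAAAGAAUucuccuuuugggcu
miR-186-3p: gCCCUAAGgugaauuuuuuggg
miR-128-3p: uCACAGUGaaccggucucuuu
miR-128-2-5p: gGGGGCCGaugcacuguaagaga
miR-3098-5p: uCCUAACAgcaggaguaggagc
miR-3098-3p: uUCUGCUGccugccuuuagga

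The 2 sets share no seed with each other. Each seed but that of let-7a-5p belonged to only 1 gene with a mean of at least 1, so this lack of overlap says nothing about the sets. On GRCm38.p6 the hairpins lie, per RefSeq, at chr13:48538179-48538272 on the minus strand (let-7a-1), chr5:139369650-139369745 minus (miR-339), chrX:144297790-144297899 plus (miR-680-2), chrX:162874918-162874995 minus (miR-3473a), chr3:157544279-157544349 plus (miR-186), chr9:112118636-112118711 minus (miR-128-2) and chr6:125195792-125195878 plus (miR-3098).

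Mir328 had the largest difference of a microRNA gene. It measured 5.05 on WT d0 and 2.92 on DKO d0, a difference of -2.13, and 3.81 on WT d2 and 0.89 on DKO d2. Both DKO values lay below both WT values, though the 2 arrays of each genotype also differed by more than 2-fold. Mirlet7a-1 measured 4.70 on WT d0 and 3.53 on DKO d0 (-1.17), with 4.86 and 3.04 at d2. Here too the genotypes did not overlap, and the WT arrays were close to each other. The let-7 family is held back in embryonic stem cells by LIN28, which blocks maturation of its precursors, and let-7 levels climb as cells differentiate. The lower value was not shared by the family. Of 12 array genes with the seed of let-7a-5p, 6 were above 0 at d0, and the others with a mean of at least 1 were Mirlet7e at 2.46 on WT and 2.03 on DKO and Mirlet7i at 1.16 and 1.03. Mirlet7d and Mirlet7f-1, within 5000 bases of Mirlet7a-1 on GRCm38.p6, differed by 0.01 and -0.14 at values of 0.33 or below.

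Mir339 measured 2.59 on WT d0 and 0.83 on DKO d0 (-1.77), but 0.89 on WT d2 and 1.22 on DKO d2. The WT d0 array alone was high. Mir680-2 measured 7.59 on WT d0, 6.54 on DKO d0, 6.49 on WT d2 and 7.19 on DKO d2, so that the genotype difference was -1.05 at d0 and 0.70 at d2. The other copies, Mir680-1 and Mir680-3, stayed at 0.55 or below on both d0 arrays.

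Among the higher microRNA genes, which were chosen by their d0 values, the DKO d0 array alone stood out in most. Mir5099 measured 3.23 on DKO d0 and between 1.17 and 1.51 on the other 3 arrays, a d0 difference of 2.06. Mir186 measured 1.89 on DKO d0 and between 0.27 and 0.38 elsewhere, a difference of 1.61. Mir3473a (0.56 on WT d0 and 2.10 on DKO d0, difference 1.54) and Mir3098 (4.0 and 5.14, difference 1.13) were likewise highest on DKO d0, with d2 values of 1.16 and 1.43 for the first and 4.26 and 3.92 for the second in the order WT, DKO. Mir128-2, whose product is enriched in brain, differed: its values were 1.16 on WT d0, 2.38 on DKO d0, 3.04 on WT d2 and 2.19 on DKO d2, so the WT d0 array was the low one. Its paralogue Mir128-1 gave 0.06 and -0.09 at d0.

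The genes spanning these microRNA genes or within 5000 bases of them showed no difference of like size. The largest was that of Ncapd2 near Mir3098, at 0.48 (0.13 and 0.61). Mir5099 and Mir680-2 had no such gene here. RefSeq gene models of GRCm38.p6 span 5 of the 9 microRNA genes, with strand not compared. Elmo3 over Mir328 differed by 0.03, 3110082I17Rik over Mir339 by -0.04, Arpp21 over Mir128-2 by 0.10, Syap1 over Mir3473a by 0.35 and Zranb2 over Mir186 by -0.07. All 5 had d0 values of 0.95 or below, and Zranb2 (0.19 and 0.13) lay under 0.30 on both d0 arrays.

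**Figure D2:**
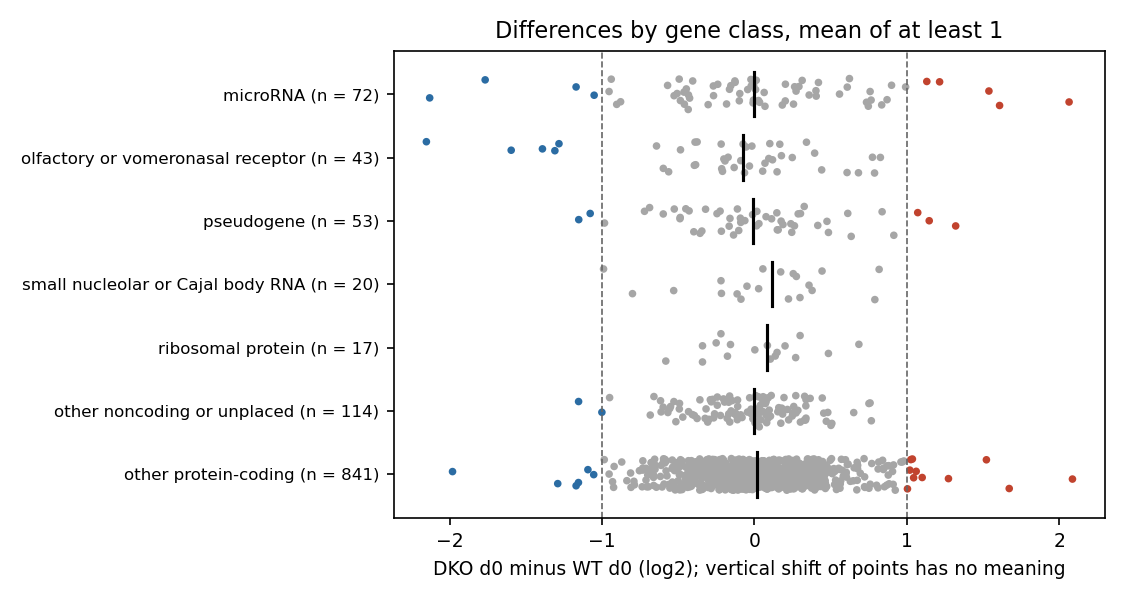
Difference DKO d0 minus WT d0 (log2, horizontal axis) by gene class, 1 point per gene with a mean of at least 1; black bars are class medians and dashed lines mark 2-fold. Class medians lie between -0.07 and 0.11, while 9 of 72 microRNA genes and 5 of 43 receptor genes fall outside the lines.

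In the lists of chromatin and phosphatase 2A genes, Cbx3 and Ppp2cb were past 2-fold. Cbx3 encodes HP1γ, a chromodomain protein that reads methylated histone H3. Its highest probe set measured 2.63 on WT d0, 4.15 on DKO d0, 3.08 on WT d2 and 2.43 on DKO d2, a d0 difference of 1.52, and DKO d0 was the highest of the 4 arrays. The other 3 Cbx3 probe sets gave -0.01, -0.43 and 0.11, so the gene as a whole was not uniformly higher, and the mean of its probe sets differed by 0.30. Of the other heterochromatin and DNA methylation genes with a mean of at least 1, the de novo methyltransferase gene Dnmt3b measured 1.36 and 1.56 and Hmgb1 1.79 and 1.70. Ppp2cb, a catalytic subunit of protein phosphatase 2A, measured 0.75 on WT d0, 2.02 on DKO d0, 0.62 on WT d2 and 0.78 on DKO d2. That is a d0 difference of 1.27, carried by the DKO d0 array alone. Its paralogue Ppp2ca gave 0.49 and 0.37, and the median difference over all 12 counted phosphatase 2A genes was 0.10. Ppp2cb was the 1 of the 12 with a mean of at least 1, which it reached only through the DKO d0 array. The PRC1 component gene Rybp, the 1 member of 24 Polycomb genes at that level, measured 1.32 and 1.19.

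In the list of 2-cell-like and preimplantation genes, members at a mean of at least 1 went both ways. Of 7 such members 3 were above 0, 1 was 2-fold higher and 2 were 2-fold lower, with a median of -0.21 against 0.01 for all 1160 genes. Of all 1160 genes 1.64% were 2-fold higher and 1.64% 2-fold lower. The list was drawn with earlier results of these arrays known. The 2-cell-like state is a rare, passing state of embryonic stem cell cultures in which genes of the 2-cell embryo are transcribed. Tmem92 measured 0.05 on WT d0, 2.14 on DKO d0, 0.59 on WT d2 and 0.65 on DKO d2. The d0 difference of 2.09 was set against a WT value under 0.30, and the DKO d2 array did not repeat it. Its mean of at least 1 came only through the DKO d0 array. Trim43c, of a tripartite-motif family of the early embryo, measured 4.48 on WT d0, 2.49 on DKO d0, 3.73 on WT d2 and 1.51 on DKO d2. The differences were -1.98 and -2.22. Pramel20, of the PRAME-like leucine-rich repeat family, measured 2.58 on WT d0 and 1.41 on DKO d0 (-1.17), but 1.60 and 2.08 at d2, where the order was turned. The other members at this level were Zscan4a (1.44 and 0.72), Usp17la (1.67 and 1.46), Usp17ld (4.17 and 4.42) and the homeobox gene Obox2 (1.25 on both). The log2 values of the 2-cell-like markers alone, 7 of 10 on the array, summed to 1.37 on WT d0 and 5.30 on DKO d0, which gives no fold. Most of that gap came from Tmem92 and from Tcstv3 (0.07 and 1.68), while Tcstv1 was lower in DKO (1.22 and 0.56). Over all 35 counted members of the list the median difference was 0.05. Of these 7 markers 3 had a mean below 0.30 and only Tmem92 one of at least 1.

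The cytoskeleton list had the most members at a mean of at least 1. Of 12, 7 were above 0 and 5 below, with 2 past 2-fold, both higher in DKO, where 1.64% of all 1160 genes were (3.28% in either direction). Both fell short of 2-fold when probe sets were averaged. Tagln2 encodes transgelin 2, an actin-bundling protein, and measured 1.86 on WT d0, 2.92 on DKO d0, 2.13 on WT d2 and 1.97 on DKO d2 (d0 difference 1.06). Tuba1c, an alpha-tubulin gene, measured 2.37, 3.42, 2.19 and 2.64 in the same order (1.04). Each had a second probe set at a lower level that pointed the other way, with -0.10 for Tagln2 and -0.43 for Tuba1c, so averaging each gene's probe sets gave 0.48 and 0.31. Tubulin genes share long stretches of sequence, and cross-hybridisation between them was not tested. Neighbouring members were nearly equal: Tubb5 measured 3.54 and 3.46, Tubb6 3.67 and 3.66, Tubg1 1.06 and 1.08, and the cytoplasmic actin gene Actg1 5.58 and 5.88. Tuba1b measured 5.69 and 5.27, Twf1 3.67 and 3.40, Tpm4 1.41 and 1.17, Arpc5 1.07 and 1.46, Tubb3 1.03 and 1.17, and the actin-monomer binder Tmsb10 1.45 and 2.18.

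**Figure D3:**
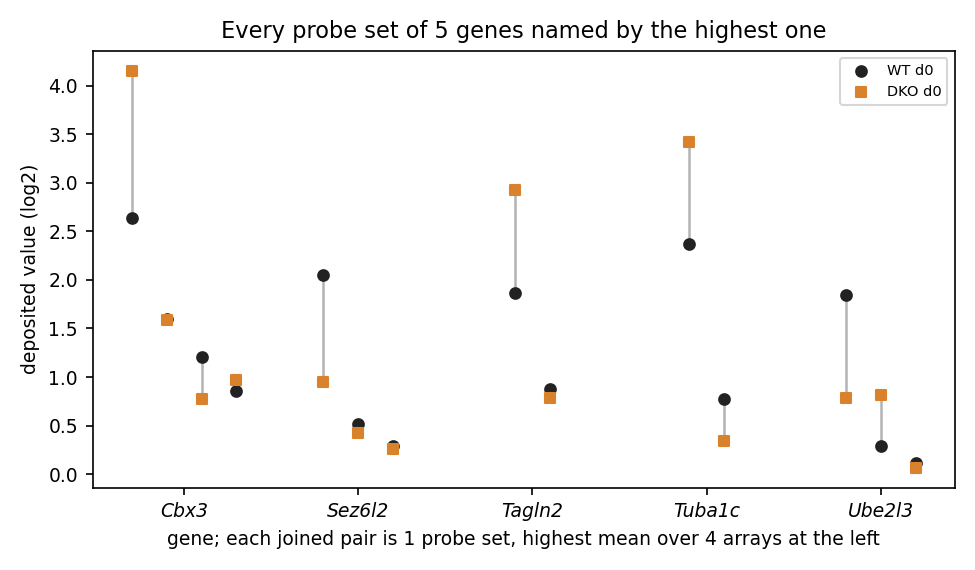
Deposited log2 values (vertical axis) on WT d0 (circles) and DKO d0 (squares) of every single-symbol probe set of the 5 genes past 2-fold that have more than 1, with a line joining the 2 values of a probe set. Only the highest probe set of each gene, at the left, is 2-fold apart.

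Further protein-coding genes lower in DKO d0 were Calm5, Erlin2, Sez6l2 and Ube2l3. Calm5, of the calmodulin family of calcium sensors, measured 3.26 on WT d0, 1.96 on DKO d0, 2.99 on WT d2 and 1.98 on DKO d2. The difference was -1.29 at d0 and -1.0 at d2. Erlin2, an endoplasmic reticulum protein that takes part in degradation of receptors, measured 1.72 and 0.56 at d0 (-1.15) and 1.37 and 1.75 at d2, so DKO d0 alone was low. Ube2l3, a ubiquitin-conjugating enzyme gene, measured 1.84 and 0.79 at d0 (-1.05) and 1.30 and 0.56 at d2. Its other 2 probe sets gave 0.52 and -0.05. Sez6l2, a neuronal membrane protein gene, measured 2.05 and 0.95 at d0 (-1.09) and 0.92 and 0.68 at d2, where WT d0 alone was high, and its other probe sets gave -0.09 and -0.03. Of the other proteasome and ubiquitin genes at this level, the proteasome subunit gene Psmb1 measured 3.22 and 4.07 and Ube2n 1.60 and 1.08.

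Further protein-coding genes higher in DKO d0 were 1700071K01Rik, Snx20, Snrnp35, Pbld2, Tnnt1 and Rsph3b. 1700071K01Rik measured 1.07 on WT d0, 2.75 on DKO d0, 0.89 on WT d2 and 0.43 on DKO d2, with a d0 difference of 1.67. Snrnp35, a protein of the minor spliceosome, measured 0.71 and 1.75 at d0 (1.04) and 0.97 and 0.95 at d2. Snx20, a sorting nexin gene, measured 0.56 and 1.66 at d0 (1.10) and 0.70 and 0.23 at d2. Pbld2 measured 1.0 and 2.02 (1.03), and Tnnt1, the troponin T of slow skeletal muscle, 0.74 and 1.76 (1.02). Rsph3b, which encodes a radial spoke protein of cilia, measured 1.85 and 2.85 at d0 (1.0) but 2.31 and 1.14 at d2. In all 6 the DKO d0 array was the highest of the 4, which the choice by d0 values favours.

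Olfactory and vomeronasal receptor genes, which are known for their transcription in sensory neurons, passed 2-fold in 5 of 43 cases (11.6%, against 3.28% of all 1160 genes), all 5 lower in DKO, where 1.64% of all genes were. Of the 43, 17 were above 0 (51.6% of all 1160 genes were), the median was -0.07 and the highest difference 0.83. Olfr1337 measured 3.10 on WT d0, 0.95 on DKO d0, 1.39 on WT d2 and 0.86 on DKO d2 (d0 difference -2.15). Olfr417 measured 2.46, 0.86, 0.69 and 1.77 in that order (-1.60), Olfr1299 2.43, 1.04, 1.38 and 0.86 (-1.39), Olfr914 2.17, 0.88, 0.78 and 0.66 (-1.28), and Vmn1r159 5.74, 4.43, 5.25 and 4.6 (-1.31). In each of the 5 the WT d0 array was the highest, which the choice by d0 values favours. Olfr1337, Olfr417 and Olfr914 lay below 1 on DKO d0 and had a mean of at least 1 only through the WT d0 array. Pseudogenes passed in 5 of 53 cases (9.43%, against the same 3.28%): Gm14406 (4.05 and 5.19), Gm9234 (0.48 and 1.81) and Gm5781 (1.82 and 2.89) were higher in DKO, and Gm5566 (2.05 and 0.90) and Gm5069 (1.63 and 0.56) lower. Gm9234, Gm5566 and Gm5069 had a mean of at least 1 only through the higher of their d0 arrays. In the class of other noncoding or unplaced genes, 4930431P03Rik (3.92 and 2.77) and 1700018G05Rik (3.64 and 2.64) were lower as well. The median level was 1.57 for receptor genes and 1.47 for pseudogenes, against 1.26 for protein-coding genes outside the ribosomal and receptor families. Median absolute differences were 0.25 and 0.30, against 0.22.

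**Figure D4:**
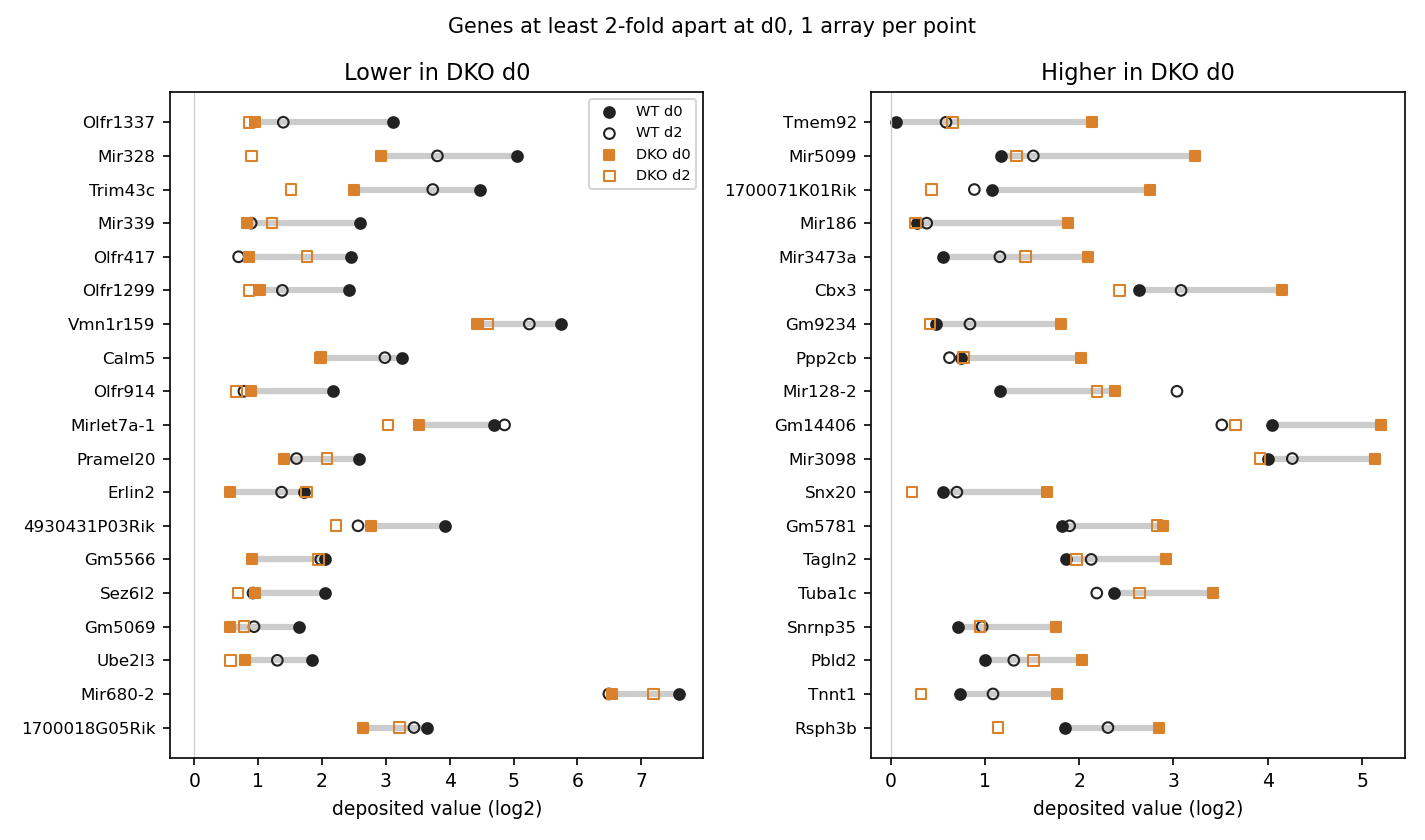
Deposited log2 values (horizontal axis) of the 38 genes at least 2-fold apart at d0 on all 4 arrays; filled marks are d0, open marks d2, circles WT, squares DKO, and grey bars join the d0 values. In 18 of the 19 higher genes the filled square lies beyond the other 3 marks, and in 17 of the 19 lower genes the filled circle does. The genes were chosen by their d0 values, which favours this order.

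The d2 pair shares no array with the d0 pair, and how the 2 directions compare on it was not tested. At d2, 67 of the 1160 genes (5.78%) were 2-fold apart. Of the 19 lower genes 14 were also lower in DKO at d2, 4 of them by 2-fold: Mir328, Trim43c, Calm5 and Mirlet7a-1. Among all 1160 genes 3.88% were 2-fold lower at d2. These 4 genes had d0 means above 2, and 2-fold differences either way at d2 were more frequent at such levels, with 13.5% of genes from 2 to 4 and 28.8% at 4 and above. Of the 19 higher genes 7 were also higher at d2 and 0 by 2-fold, where 1.90% of all 1160 genes were. The nearest was the pseudogene Gm5781, at 0.93. The median d2 difference was -0.24 for the lower and -0.16 for the higher genes, against -0.04 for all 1160 genes, of which 50.2% had the same sign on both days. In 18 of the 19 higher genes DKO d0 was the highest of the 4 arrays, and in 17 of the 19 lower genes WT d0 was. The genes were chosen by their d0 values, so these 2 counts are a description only.

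**Figure D5:**
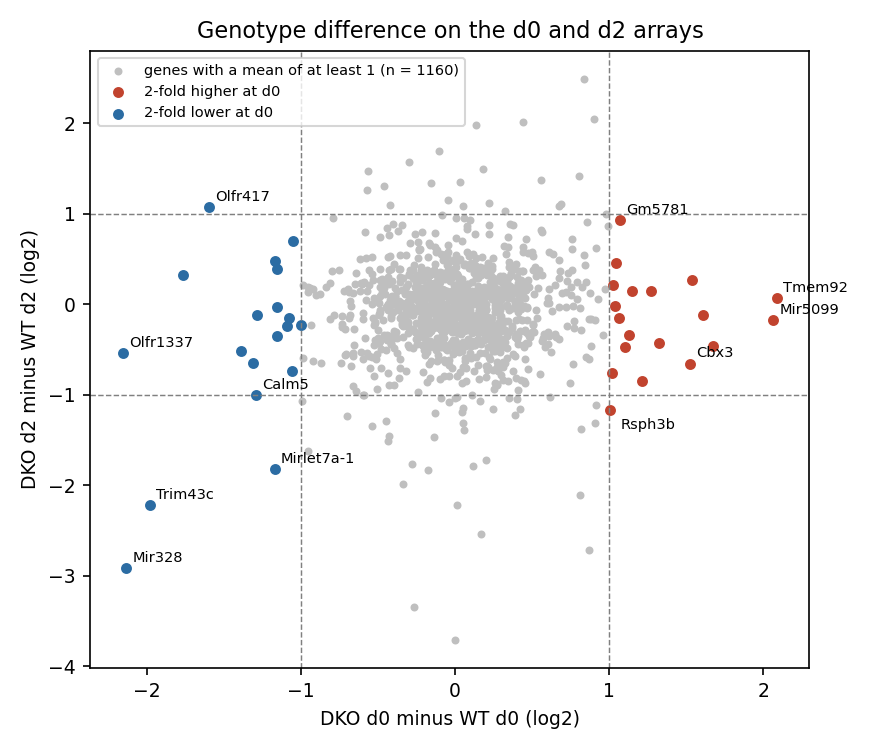
Difference DKO minus WT on the d2 arrays against that on the d0 arrays (both log2), 1 point per gene for 1160 genes, with dashed lines at 2-fold. Mir328, Trim43c, Mirlet7a-1 and Calm5 lie in the lower left corner, and no gene lies in the upper right one.

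Genes with the same genotype difference on both days were then listed, with limits set after the values were seen. A difference of at least 0.8 was reached by 83 genes at d0 and 114 at d2. It was reached on both days in the same direction by 13 genes and in opposite directions by 8. In 7 of the 13, each genotype's 2 arrays also lay within 0.5 of each other, as they did in 705 of the 1160 genes. Lower in DKO were Calm5, Mirlet7a-1 and Snora33, an H/ACA small nucleolar RNA gene of the class that guides pseudouridylation, with 2.46 (d0) and 2.56 (d2) in WT against 1.47 and 1.5 in DKO. The d0 difference of Snora33 was -0.55 with its probe sets averaged, short of the 0.8 used here. Higher in DKO were Ptma, the gene of the acidic chromatin protein prothymosin α (0.83 and 0.75 on WT, 1.69 and 1.65 on DKO), Lce3d, a gene of the cornified envelope (3.27 and 2.96 on WT, 4.25 and 3.95 on DKO), Mir1954 (1.81 and 1.99 on WT, 2.80 and 2.86 on DKO) and Gm5781 (1.82 and 1.90 on WT, 2.89 and 2.83 on DKO). Lce3d and Mir1954 lay just outside 2-fold at d0, with differences of 0.98 and 0.99, and Snora33 with -0.99.

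Lists of pluripotency and lineage genes had few members with clear signal. Of 610 counted genes in 30 lists, 75 had a mean of at least 1 and 8 of these were 2-fold apart (10.7%, against 3.28%). The lists were drawn with earlier results of these arrays known, and those 8 genes, Tmem92, Trim43c, Pramel20, Cbx3, Ube2l3, Tagln2, Tuba1c and Ppp2cb, are described above. The lists of core pluripotency, germ cell, NuRD and BMP target genes, like that of CtBP partners, had no member at that level. Of the naive genes, Dppa3, a maternal factor that protects imprints, measured 2.00 on WT d0 and 1.52 on DKO d0, Dppa5a 0.96 and 1.23 and the nuclear receptor gene Nr5a2 1.10 and 1.19. All 3 mesendoderm genes with a mean of at least 1 were below 0: the homeobox gene Gsc (2.44 and 2.07), Msgn1 (1.08 and 0.96) and Tbx6 (1.48 and 1.36). Of all 12 counted mesendoderm genes 3 were above 0, with a median of -0.11, where 51.3% of all counted genes were above 0. Gata6, which sets primitive endoderm, measured 0.88 and 1.27. Vim, the mesenchymal intermediate filament vimentin, measured 0.78 and 1.63, a difference of 0.85 that was 0.52 with probe sets averaged. The collagen gene Col3a1 measured 0.94 and 1.24. Of all 18 counted fibroblast and mesenchymal genes 10 were above 0, with a median of 0.01. In trophoblast and epithelium Krt8 measured 0.90 and 1.11 and Gata2 1.29 and 1.08. None of the genes from Dppa3 to Gata2 reached 2-fold. Below a mean of 1, Cdh2, in the formative and mesenchymal lists, did (0.21 and 1.23).

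Members of the housekeeping groups that follow are counted only at a mean of at least 1 unless stated otherwise. No member at that mean reached 2-fold, and in groups this small few would at the 3.28% of all 1160 genes. Counts above 0 stand beside 51.6% of all 1160 genes. Below a mean of 1, the ribosomal protein gene Rpl34 was more than 2-fold lower in DKO d0. Rpl9, also below that mean, was more than 2-fold higher, though not with its probe sets averaged. Of 17 ribosomal protein genes 10 were above 0, with a median of 0.09, a median absolute difference of 0.22, the same as that of other protein-coding genes, and a range from -0.58 (Rps9, 1.57 and 0.99) to 0.69 (Rps15, 2.06 and 2.75). Of 20 small nucleolar and Cajal body RNA genes 12 were above 0, with a median absolute difference of 0.27, from -0.99 for Snora33 to 0.82 for Snord8 (5.38 and 6.20). Mitochondrially encoded respiratory chain genes were below 0 in 6 of 8 cases with a median of -0.14, and the complex I genes ND4 (4.02 and 3.35), ND1 (2.5 and 2.05) and ND5 (2.73 and 2.30) were the lowest. Nuclear ones were within 0.17, with Ndufb11 at 1.27 and 1.44, Uqcr11 at 2.62 and 2.53 and Atp5d at 1.88 and 1.91. In glycolysis Gapdh measured 5.94 and 5.93 and Ldha 1.14 and 1.54. Translation factors had 2 of 5 above 0, with Eif4a1 at 2.33 and 1.80, Eef1a2 at 2.97 and 2.61 and Eif4b at 1.25 and 1.16. The chaperone and stress list had 4 of 5 above 0, with Hspa8 at 6.64 and 6.98, Sod1 at 2.88 and 3.15 and Gstm1 at 1.61 and 1.83. The RNA-binding list had 2 of 6, with Npm1 at 1.40 and 0.99, Hnrnpc at 1.28 and 1.04 and U2af1 at 1.27 and 1.49. The cell cycle list had 3 of 3 above 0: Ptma at 0.83 and 1.69, Cdc20 at 0.85 and 1.15 and the histone variant gene H2az1 at 1.49 and 1.61. Without the minimum mean, 21 of 39 counted cell cycle genes and 18 of 39 chaperone and stress genes were above 0. So were 12 of 34 RNA-binding genes, 16 of 31 translation factors and 3 of 10 mitochondrially encoded genes, against 51.3% of all counted genes. Of the remaining lists, Tcl1b1 measured 1.2 and 1.48, the imprinted gene Nnat 1.48 and 1.68, the immunoglobulin genes Ighm 4.73 and 3.78 and Ighg3 1.53 and 1.71, and Flg 1.30 and 1.0. With probe sets averaged, the differences were -0.09 for Ighm, 0.37 for Gapdh, -0.27 for Eif4a1, 0.11 for Hspa8 and -0.18 for Npm1.

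Promoters were searched for the E-box CAGGTG on either strand, the site of ZEB proteins that recruit CtBP, in RefSeq windows from 250 bases before to 50 after the gene start on GRCm38.p6. It was present for 2 of 7 higher genes with a window, Rsph3b and Tnnt1, and for 0 of 10 lower genes. Of 799 genes with a mean of at least 1 and a window, 22.9% held it, as did 22.6% of all 27025 genes with a window. Counted by window, of which a gene can have several, the share was 20.2% of 32851. A match describes the letters alone.

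Probe sets without exactly 1 symbol, which the gene counts leave out, were 2-fold apart at d0 in 703 of 2480 with a mean of at least 1 (28.3%).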

How the data were processed

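Total RNA of the 4 samples was labelled for GeneAtlas arrays, per the labels' protocols. The deposited values are taken as log2 and were made by the authors with RMA, per the submitters' processing notes; no version or genome build is given in the sources used here, and most values lie under 1, which is unusual for RMA. The table was used without rescaling. Of 41345 probe sets 23521 had 1 gene symbol, 1814 several and 16010 none; 23328 of the single-symbol ones were renamed by Entrez number through RefSeq's GRCm38.p6 gene table. Where a gene had several, the one of highest mean across all 4 arrays stood for it. Genes were counted in the lists where the highest value reached the 40th percentile of all values (0.30).

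Named genes were the design genes, those with a d0 mean of at least 1 and a difference of at least 1, the 3 largest differences per list, the 10 highest levels, the genes next to each limit and, below a mean of 1, the 8 largest coding differences each way. Snord8, Rps9, Rps15, further list and family members, neighbours of microRNA genes and the genes alike on both days were added after their values were seen. Suz12-knockout cells, which the series title names, were not analysed here. Members and lists were chosen with earlier results of these data known. With 1 array per group no test was run. The number of arrays limits the precision. Counting was tested on simulated data. Alternatives covered normalization (limma 3.58.1 in R 4.3.3), probe set choice, level minimum and fold. Python 3.11.15, pandas 2.3.3, numpy 2.4.6 and matplotlib 3.10.9 were used.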

Additional observations from a re-analysis of the deposited data

Results flagged for a closer look

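Genotype differences of at least 2-fold in opposite directions on the 2 days were found for 2 of the 38 genes. Rsph3b differed by 1.0 at d0 and by -1.17 at d2, and Olfr417 by -1.60 and 1.07. With 1 array per group the difference between the days was not tested.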

How the results depend on the processing

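The count of 38 genes (19 higher, 19 lower) stayed within 1.5 times under equal array medians, quantile normalization, cyclic loess, averaged probe sets and the probe set with the highest d0 mean (33 to 39 in all). Of the 38 genes, 37 were shared with each of the 3 normalizations and 33 with averaged probe sets. A minimum mean of 2 gave 17 of 230 genes (8 higher, 9 lower) and a minimum of 0.5 gave 66 of 7002 (30 and 36). No minimum gave 71 (35 and 36), 0.355% of 20015 counted genes. A 1.5-fold threshold gave 164 of 1160 (87 and 77). All probe sets, named or not, gave 742 of 3676 (338 and 404), or 20.2%. Added after the data were seen, a minimum of 1 on both d0 arrays gave 20 of 829 genes (10 and 10). Leaving out microRNA and receptor genes gave 24 of 1045 (14 and 10). Each of these changes which genes are counted. Rsph3b dropped to 0.99 with equal medians, and 1700018G05Rik to -0.90 after quantile normalization and -0.95 after cyclic loess. Averaging probe sets left Cbx3, Tagln2, Tuba1c, Sez6l2, Ube2l3 and, below a mean of 1, Rpl9 under 2-fold, and moved 7 other named genes (Vim, Eif4a1, Gapdh, Hspa8, Npm1, Ighm and Snora33), whose values stand in the report; no 2-fold difference of a named gene changed sign under the alternatives run. No paired analysis was possible because each group was 1 array. Of the 38 genes, 18 had a d0 value below 1 on 1 array, and 2 a value below 0.30, so their size is uncertain.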

Other observations

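Genes with a d0 mean below 1 reached 2-fold against values near background. The largest positive differences among coding genes were those of the 2-cell-like gene Tcstv3 (0.07 on WT d0, 1.68 on DKO d0), Tcl1b3 (0.28 and 1.58), Speer4f1 (0.30 and 1.55), Myct1 (0.29 and 1.44), Rpl9 (-0.15 and 0.99, a difference of 0.43 with probe sets averaged), the cytokine receptor gene Csf2rb (-0.02 and 1.07), Gm4340 (0.09 and 1.17) and Chst13 (-0.07 and 0.97). Tcl1b3 belongs to a family expressed in early embryos, and 4 of its 6 counted members lay above 0, with Tcl1b4 at 0.15 and 0.90. The largest negative differences were those of Serpina3i (1.57 and 0.15), Fbxw22 (1.26 and -0.07), Krt31 (1.28 and 0.02), Tesk1 (1.25 and 0.07), Rpl34 (1.2 and 0.02), Anapc15 (1.46 and 0.30), the thymic transcription factor gene Foxn1 (1.05 and -0.04) and Ifna15 (1.13 and 0.06). The lower value of each of these 16 genes was at most 0.30 as rounded.

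Probe sets without exactly 1 gene symbol held most of the 2-fold differences on the d0 arrays. Of 2480 such probe sets with a d0 mean of at least 1, 703 were 2-fold apart between the genotypes (28.3%). Between WT d2 and WT d0, which share a genotype, 587 of them were (23.7%). They made up 94.7% of all 742 probe sets past 2-fold, and 2369 of the 2480 had no symbol at all. Their median level was 1.71, against 1.28 for the 1160 named genes.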
